A study of Arabidopsis thaliana with 6 samples.

Results

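THIC (AT2G29630, chromosome 2) encodes phosphomethylpyrimidine synthase, the plastid enzyme that makes the pyrimidine ring of thiamine, vitamin B1. It was measured by 1 of the 22746 probe sets tested in whole Arabidopsis thaliana seedlings, and is 1 of 13286 genes with a probe set of their own and a locus in the gene table. The gene was chosen by name, with its difference between the genotypes already known, so its levels, its difference and its rank are given as a description with no test. The mutant pkl-1 and the wild-type accession Col-0 were harvested as seedlings at 14 days, with 3 arrays of each genotype, called biological replicates in the labels. PICKLE (PKL) is a CHD3-type chromatin remodeller, and the lesion of its allele pkl-1 is not described in the labels. All seeds were surface sterilized and plated on 1/2 MS (Murashige and Skoog) agar, and both genotypes grew under continuous illumination with no other treatment. The number of seedlings behind an array and the hour of harvest are not given in the labels. The probe set of PKL is not named in the annotation used here, so the genotype labels could not be checked against the mutated gene.

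Plants build thiamine from a pyrimidine and a thiazole ring that are made separately in the plastid and then joined. THIC converts an intermediate of purine synthesis into the pyrimidine phosphate in a radical reaction that needs an iron-sulfur cluster and S-adenosylmethionine, and a separate enzyme makes the thiazole. The joined product, thiamine monophosphate, is dephosphorylated and then activated to thiamine diphosphate, the cofactor of pyruvate decarboxylase, transketolase and several dehydrogenases of central metabolism. In Arabidopsis the 3' end of the THIC transcript holds a riboswitch that binds thiamine diphosphate and changes how the transcript is processed, and the level of the transcript follows the circadian clock. The gene table lists 4 RefSeq transcripts of THIC. Which of them the probes match is not given in the sources used here, so the signal cannot be divided among them.

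THIC signal was higher in pkl-1 on every array. Signals are GCRMA values on a log2 scale, on which 1 unit is a 2-fold difference. The log2 signal was 10.24, 10.42 and 10.08 on pkl-1 replicates 1, 2 and 3, and 8.86, 9.11 and 8.85 on wild-type replicates 1, 2 and 3. The lowest pkl-1 array, replicate 3, lay above the highest wild-type array, replicate 2, by 0.97 log2 units, so the genotypes did not overlap. The pkl-1 mean was 10.25 ± 0.17 and the wild-type mean 8.94 ± 0.15 (SD, n = 3 each). Their difference was 1.31 ± 0.12 log2 units (SE), which is 2.48-fold. Of all tested probe sets 10.6% had their pkl-1 arrays above all wild-type arrays, and since this contrast chose the gene nothing is read from its own place among them.

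The order of the 6 levels put the 3 pkl-1 arrays first and the 3 wild-type arrays after them. Neighbours within a genotype lay close together. The whole range was 0.34 log2 units among the pkl-1 arrays and 0.26 among the wild-type arrays, both smaller than the 0.97 units between the genotypes. Wild-type replicates 1 and 3 were nearly equal. Each of the 9 possible differences between a pkl-1 and a wild-type array was positive, from 0.97 to 1.58 log2 units. Arrays with the same replicate number differed by 1.38, 1.32 and 1.24 log2 units for numbers 1, 2 and 3.

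Replicate 2 was the highest array in both genotypes, by 0.17 log2 units above the genotype mean in each. In 11.9% of all tested probe sets replicate 2 was the highest in both genotypes. The deviations of the replicate 2 arrays from their genotype means had a correlation of -0.02 over all tested probe sets. Nothing is read from this shape. The pooled SD of THIC within a genotype was 0.16 log2 units, so that the difference between the genotypes was 8.20 times as large. This ratio is a description and no test, since the gene was chosen with its difference known. Without any 1 array the difference stayed between 1.22 and 1.40 log2 units.

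**Figure D1:**
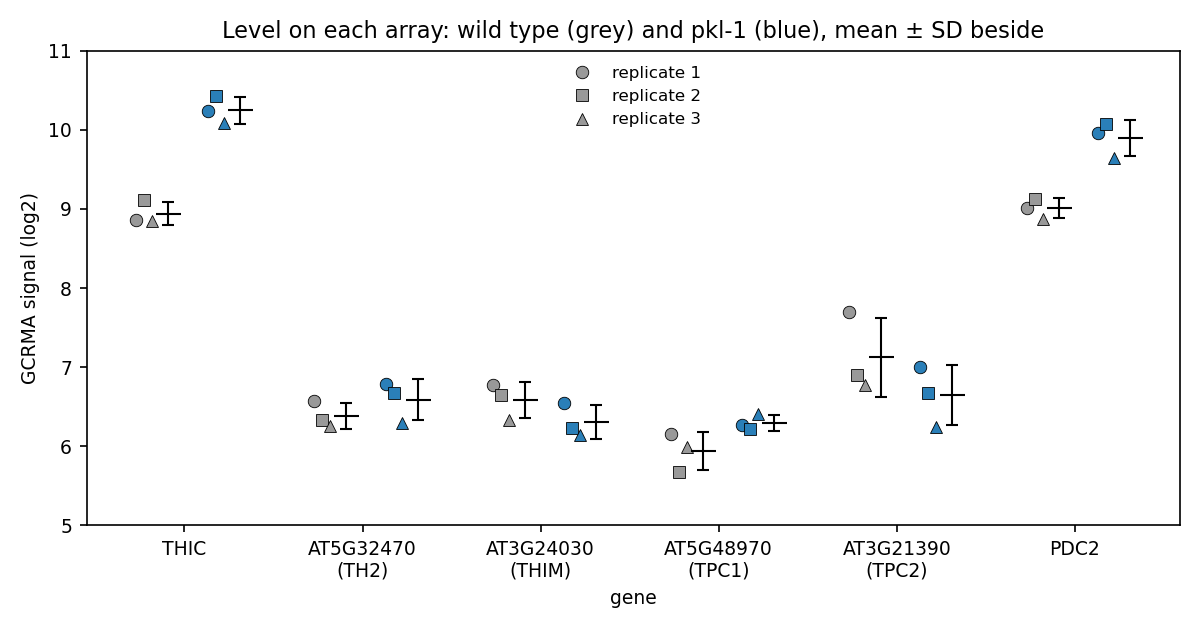
GCRMA signal on a log2 scale (vertical axis) of THIC, the other measured genes of thiamine synthesis and transport, and PDC2 on each array; grey symbols are wild type, blue symbols pkl-1, the symbol shape gives the replicate number, and bars beside them show mean ± SD of 3 arrays. For THIC and PDC2 all pkl-1 arrays sit above all wild-type arrays, with THIC means of 10.25 and 8.94; heights of different genes cannot be set against each other, since each probe set has its own response.

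THIC had a bright signal in both genotypes, so its difference did not start near the background level of the array. Its signal exceeded that of 87.7% to 89.9% of tested probe sets on the wild-type arrays and of 95.3% to 96.6% on the pkl-1 arrays. Over all 6 arrays its mean was 9.59 log2 units, and 1542 probe sets (6.78%) were at least as bright. Of these, 1 had a rise as large as that of THIC. Over all 22746 tested probe sets, without regard to brightness, 117 had a larger rise.

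The rank of the THIC difference was taken among the 500 probe sets nearest to it in mean signal, whose means ran from 9.39 to 9.80 log2 units. THIC ranked 2 by rise, behind 1 probe set, and 3 by size in either direction. The differences of the 500 had a median of 0.01 log2 units, and their 5th and 95th percentiles were -0.44 and 0.47. A rise of at least 2-fold was seen in 3 of them and a fall of at least 2-fold in 5. Among the 500, 57 (11.4%) had all pkl-1 arrays above all wild-type arrays. None of the 500 showed a gap between the lowest pkl-1 and the highest wild-type array as wide as the 0.97 log2 units of THIC. The spread of THIC within genotypes was ordinary for its brightness, since 62.4% of the 500 had a smaller pooled SD, and their median was 0.13 log2 units.

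The named genes next to THIC in this ranking were also bright genes with higher signal in pkl-1, given here as values with no test because their differences placed them there. The 1 gene above THIC was AT4G30650, of a family of small membrane proteins that respond to low temperature and salt. Its log2 signal was 10.53, 10.34 and 10.07 in pkl-1 and 9.10, 8.99 and 8.87 in wild type, a difference of 1.33 ± 0.13 (SE). It was also the only probe set of at least the brightness of THIC with a rise as large.

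The named genes just below THIC had smaller differences. AT3G52500, of the aspartyl protease family, had a difference of 0.93 ± 0.18 log2 units. PDC2, a pyruvate decarboxylase, followed at 0.89 ± 0.13. The amino acid kinase family gene AT3G18680, known as the plastid UMP kinase PUMPKIN, was at 0.87 ± 0.11. AT3G16670 was at 0.72 ± 0.17. In all 5 of these genes next to THIC the pkl-1 arrays lay above the wild-type arrays, as their choice by size makes likely.

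**Figure D2:**
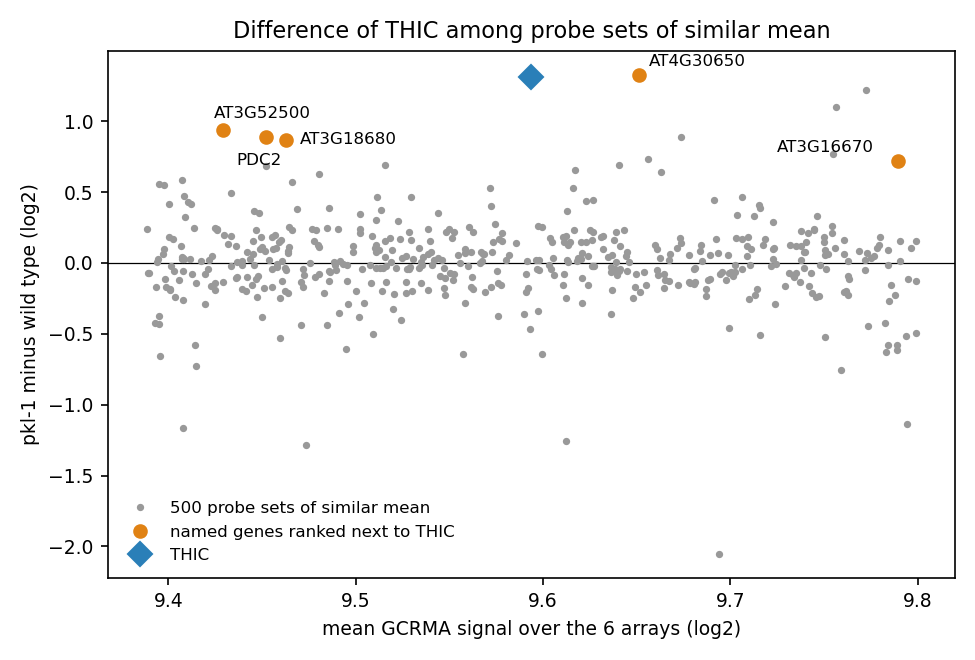
Difference between pkl-1 and wild type in log2 units (vertical axis) against mean GCRMA signal over the 6 arrays (horizontal axis, log2) for THIC (diamond), the 500 probe sets nearest to it in mean signal (grey) and the named genes ranked next to it (orange). THIC lies at 1.31 with AT4G30650 at 1.33 just above it, and most of the 500 lie between -0.44 and 0.47.

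The other genes of the thiamine route that named probe sets measured did not pass the test. Of the 7 listed genes of thiamine synthesis, THIC and 2 others were measured, and of 3 transport genes 2. Here and below, measured means that the annotation used here paired a probe set with that gene alone. The 8730 probe sets paired with no gene may also carry signal of listed genes. The other listed genes, among them those of the thiazole synthase THI1 and the joining enzyme TH1, are not analysed here. With limma, 0 of the 4 measured genes other than THIC passed at an adjusted p of 0.05 over all tested probe sets, and 0 had an unadjusted p under 0.05. Across all tested probe sets 2.37% passed in either direction and 14.9% had an unadjusted p under 0.05, so 0 of 4 is near those shares and is no result about the route.

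AT5G32470, known as TH2, encodes the phosphatase that frees thiamine from thiamine monophosphate. Its log2 signal was 6.78, 6.68 and 6.29 in pkl-1 and 6.57, 6.33 and 6.25 in wild type, and the genotypes overlapped. The difference was 0.20 ± 0.18 log2 units (SE; limma adjusted p = 0.675). AT3G24030 encodes the kinase that recovers the thiazole ring of thiamine in salvage. Its signal was 6.55, 6.23 and 6.15 in pkl-1 and 6.78, 6.65 and 6.33 in wild type, again overlapping, with a difference of -0.27 ± 0.18 (limma adjusted p = 0.549).

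Both measured transport genes encode mitochondrial carriers of thiamine diphosphate, and their differences had opposite signs. AT5G48970, known as TPC1, was at 6.27, 6.22 and 6.41 in pkl-1 and 6.15, 5.67 and 5.99 in wild type. Its genotypes did not overlap, but the difference of 0.36 ± 0.17 log2 units did not pass (limma adjusted p = 0.397). AT3G21390, known as TPC2, was at 7.01, 6.67 and 6.25 in pkl-1 and 7.69, 6.90 and 6.78 in wild type. Its arrays overlapped and spread widely, and the difference was -0.48 ± 0.28 (limma adjusted p = 0.497). No difference between THIC and these genes was tested, and a p above the threshold does not show that they were equal between the genotypes.

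Of the enzymes that use thiamine diphosphate, 8 of 22 listed genes were measured, and 1 of them, PDC2, passed with limma as a rise. Across all tested probe sets 1.06% passed as rises and 2.37% in either direction. With so few genes, 1 of 8 is no result about these enzymes. PDC2 encodes a pyruvate decarboxylase, which makes acetaldehyde in the fermentation pathway. Its log2 signal was 9.96, 10.08 and 9.64 in pkl-1 and 9.02, 9.13 and 8.88 in wild type, with no overlap. The rise was 0.89 ± 0.13 log2 units (SE), or 1.85-fold (limma adjusted p = 0.0183). As in THIC, replicate 2 was the highest array of both genotypes. The call of PDC2 was lost without pkl-1 replicate 1 or 2 or wild-type replicate 2 or 3 (limma adjusted p = 0.0549 to 0.0925), while the difference stayed between 0.79 and 1.01 log2 units.

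The other 7 enzyme genes did not pass, with differences from -0.16 to 0.38 log2 units (limma adjusted p = 0.400 to 0.757). They cover the beta subunits of plastid and mitochondrial pyruvate dehydrogenase (AT2G34590 and MAB1), both listed 2-oxoglutarate dehydrogenases, a branched-chain ketoacid dehydrogenase subunit, a 2-hydroxyacyl-CoA lyase and PHYLLO of phylloquinone synthesis. AT5G65750, a 2-oxoglutarate dehydrogenase gene named here after its value was seen, had the largest of these, 0.38 ± 0.19, and its genotypes did not overlap. Over the 8 measured enzyme genes the median difference was 0.14 log2 units and 6 were positive. PHYLLO, 1 of these 6, was close to the dimmest signals of the arrays, with a mean of 1.82 log2 units. Over all tested probe sets the median was 0.01 and 52.5% were positive.

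Processes that supply THIC were covered by few named probe sets, and with limma 0 of the 4 measured genes passed and 1 had an unadjusted p under 0.05, counts near the 2.37% and 14.9% of all tested probe sets. In the purine route, which provides the aminoimidazole ribotide that THIC consumes, 2 of 12 listed genes were measured, both for steps outside the one that forms that compound. AT2G35040, for the final enzyme of the route to inosine monophosphate, was at 8.28, 8.44 and 8.37 in pkl-1 and 7.88, 8.17 and 8.10 in wild type. The groups did not overlap, and the difference of 0.31 ± 0.12 log2 units had an unadjusted limma p of 0.0281 and an adjusted p of 0.256. AT1G31220, for an earlier formyltransferase, was at -0.02 ± 0.17. Of 10 genes of plastid iron-sulfur cluster assembly 2 were measured. The cysteine desulfurase gene CPNIFS was at -0.14 ± 0.12 and the scaffold gene HCF101 at 0.16 ± 0.08 (limma adjusted p = 0.648 and 0.426). None of the 10 listed genes of biotin, lipoate and vitamin B6 synthesis had a probe set of its own here.

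The circadian clock list was included because THIC is known as a clock-regulated gene, and 2 of its 16 genes were measured. COR27, a cold-responsive gene that acts in the clock, was at 6.24, 6.46 and 6.36 in pkl-1 and 3.59, 4.38 and 4.32 in wild type. The groups lay far apart, and COR27 rose by 2.25 ± 0.24 log2 units (limma adjusted p = 0.00664). This change was known when the list was made, so its p-value carries no weight as support. GIGANTEA (GI), an evening gene, was at 6.47, 6.27 and 5.85 in pkl-1 and 5.56, 6.16 and 5.65 in wild type. Its groups overlapped, with a difference of 0.40 ± 0.23 (limma adjusted p = 0.478). The part of clock phase in the THIC difference was not tested.

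**Figure D3:**
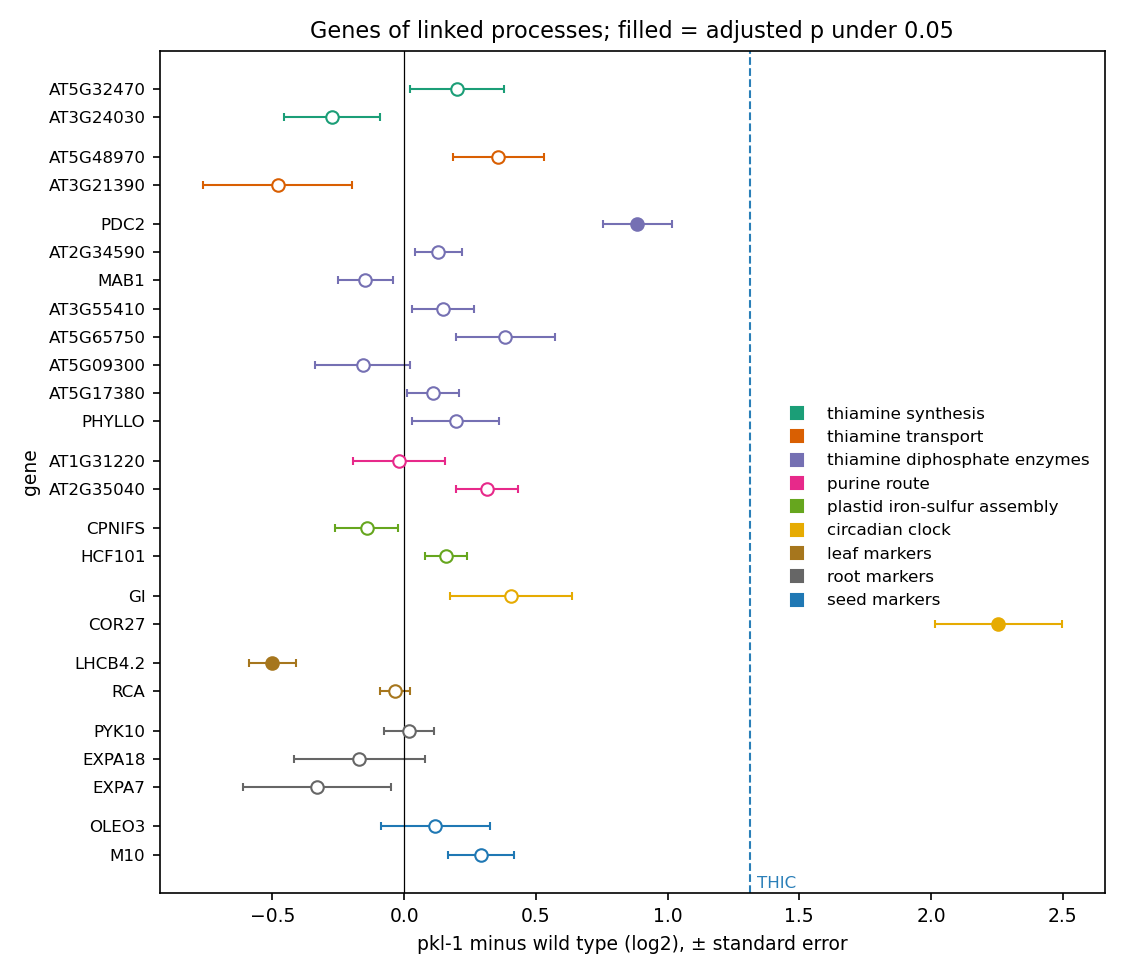
Difference between pkl-1 and wild type in log2 units, ± SE (horizontal axis), for the 25 measured genes of linked processes and tissue markers (vertical axis), coloured by list; filled symbols passed at an adjusted p of 0.05, and the dashed line marks THIC. PDC2 at 0.89 and COR27 at 2.25 passed above zero and LHCB4.2 at -0.50 below it, and the other 22 did not pass.

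Over all lists 25 of 105 listed genes besides THIC were measured, and 3 passed. PDC2 and COR27 were higher and LHCB4.2 was lower, where 1.06% and 1.31% of all tested probe sets passed in those directions. The lists were made with earlier results of these data known, among them the changes of COR27 and LHCB4.2. These counts, with PDC2 included, therefore carry no weight as support. In 8 of the 25 the genotypes did not overlap, against 21.0% of all tested probe sets, and 5 of those 8 did not pass the test. The median difference of the 25 was 0.12 log2 units.

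The labels give whole seedlings as the tissue, and markers of leaf and root were both measured. Of 8 leaf markers 2 were measured. RCA, Rubisco activase, was at 13.2 log2 units in both genotypes, and the photosystem II antenna gene LHCB4.2 fell by 0.50 ± 0.09 (limma adjusted p = 0.0355). The fall of LHCB4.2 was known when the list was made. The mean of both leaf markers ran from 12.62 to 12.80 in pkl-1 and from 12.93 to 13.01 in wild type, so this measure was lower in pkl-1. That shift came mostly from LHCB4.2, since RCA differed by -0.03 ± 0.06 (limma adjusted p = 0.845). The part of leaf marker level in the THIC difference was not tested. In whole seedlings, fewer cells of a type and less RNA per cell cannot be told apart. The call of LHCB4.2 ended when replicate 2 of pkl-1 or any array of wild type was left out (limma adjusted p up to 0.122) and with no trend in the fit (0.111).

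The mean signals of root markers and of seed markers overlapped between the genotypes. The mean of the 3 measured of 8 root markers, PYK10, EXPA18 and EXPA7, ran from 6.48 to 6.96 in pkl-1 and from 6.58 to 7.01 in wild type. The mean of the 2 measured of 10 seed markers, OLEO3 and M10, ran from 1.68 to 2.26 in pkl-1 and from 1.77 to 1.89 in wild type, close to the dimmest signals of the arrays, and no defining seed storage protein gene was measured by a named probe set. OLEO3 overlapped, with a difference of 0.12 ± 0.21. M10 did not overlap and was higher in pkl-1 by 0.29 ± 0.12 (limma unadjusted p = 0.0476, adjusted p = 0.328). Array medians lay between 5.03 and 5.13 log2 units. The 3' minus 5' signal of the control transcripts, a sign of RNA quality, overlapped between the genotypes for GAPDH, actin and ubiquitin. For actin it was 0.45 to 0.53 log2 units in pkl-1 and 0.31 to 0.84 in wild type.

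Genes close to THIC on chromosome 2 were partly covered. Of the 5 annotated protein-coding genes on either side, 5 of the 10 had a probe set of their own, and the immediate neighbours AT2G29628 and JOSL are not analysed here. With limma 0 of the 5 passed and 0 had an unadjusted p under 0.05 (adjusted p = 0.340 to 0.893), which is near the 2.37% and 14.9% of all tested probe sets. The nearest measured gene, AT2G29620, lies 2 genes away. Its log2 signal was 1.95, 2.07 and 1.81 in pkl-1 and 1.45, 1.86 and 1.60 in wild type, close to the dimmest signals, with a difference of 0.31 ± 0.13. AT2G29590 was at -0.18 ± 0.21 and AT2G29600 at 0.05 ± 0.11 on one side. On the other, AT2G29660 was at 0.22 ± 0.25 and AT2G29670 at 0.20 ± 0.22. AT2G29670 had a pkl-1 mean of 9.20 ± 0.24 and a wild-type mean of 8.99 ± 0.43 (SD, n = 3 each).

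The genes whose profile over the 6 arrays was closest to that of THIC were found from the root-mean-square difference of mean-centred log2 signals, over 13435 probe sets paired with 1 gene of the gene table. The 5 closest had differences of 0.12 to 0.14 log2 units from the THIC profile, against a median of 0.68 over all compared. They are a description of likeness with no test, and 6 arrays of which 3 are high and 3 low make close profiles easy to find. AT5G05890, of the UDP-glycosyltransferase family, was closest at 0.12, with signals of 6.25, 6.36 and 5.97 in pkl-1 and 5.07, 4.94 and 4.93 in wild type. AT5G20740, of a family of invertase and pectin methylesterase inhibitors, had a pkl-1 mean of 8.03 ± 0.20 and a wild-type mean of 6.62 ± 0.18 (SD, n = 3 each). It matched the high replicate 2 of THIC in wild type and not in pkl-1.

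The remaining close profiles were those of AT2G43200, KELP and AT1G76270. AT2G43200 had signals of 5.85, 6.20 and 6.02 in pkl-1 and 4.81, 4.75 and 4.50 in wild type. The suffix of its probe set marks probes that may match more than 1 transcript, so its signal may be shared. KELP, a transcriptional coactivator gene, was at 8.44, 8.37 and 8.03 in pkl-1 and 7.19, 7.13 and 7.03 in wild type. AT1G76270, of the O-fucosyltransferase family, was at 5.25, 5.49 and 5.24 in pkl-1 and 4.19, 4.15 and 4.23 in wild type. All 5 had higher signal on every pkl-1 array, with differences between the genotypes of 1.14 to 1.41 log2 units beside 1.31 for THIC. None of the 5 is on the lists of thiamine metabolism.

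**Figure D4:**
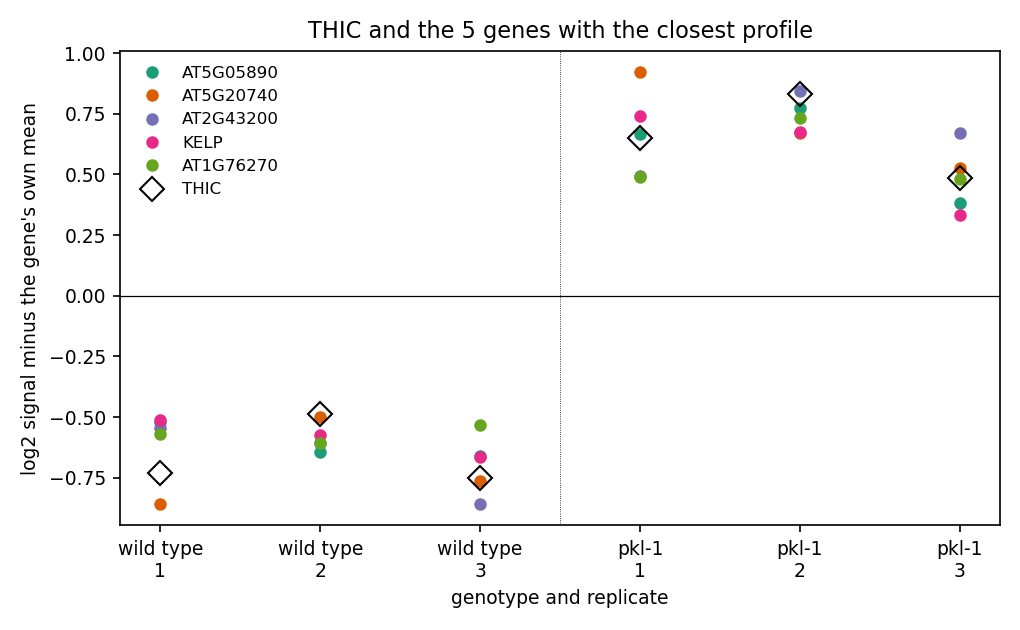
Log2 signal minus the gene's own mean over the 6 arrays (vertical axis) on each array (horizontal axis) for THIC (open diamonds) and the 5 genes with the closest profile (coloured points). All 6 genes lie below zero on the wild-type arrays and above zero on the pkl-1 arrays, with genotype differences of 1.14 to 1.41 log2 units.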

How the data were processed

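The authors deposited log2 signal values, 1 per probe set and array, which GCRMA produced, per the submitters' processing notes; its version is not given in the sources used here. GCRMA corrects a probe-sequence background, normalizes arrays and summarises probes. The log2 scale was read from the values, 0.597 to 13.7. With 3 arrays per genotype, the number of arrays sets the precision.

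Of 22810 probe sets, 64 controls were left out. The platform annotation paired 13513 with 1 gene, 503 with several and 8730 with none here, and 13436 of the first had a locus in the TAIR10.1 gene table. Since the build behind the files is not named, no coordinates are given.

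Genotype differences were tested in R 4.3.3 with limma 3.58.1 (lmFit, eBayes with a trend, 2-sided), as pkl-1 minus wild type, with Benjamini-Hochberg adjustment over 22746 probe sets and a threshold of 0.05; SEs are moderated. The fit was tested on simulated data. THIC itself was given no test.

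The gene and the lists were chosen with earlier results of these data known. Named genes are THIC, all measured members of the thiamine synthesis and transport lists, up to 2 rises and 2 falls of each other list or its 2 brightest members where none changed, measured genes within 5 of THIC, the 5 closest profiles, and up to 5 genes ranked just above and below THIC among 500 of similar mean, of which 1 is not reported here. Alternatives were quantile normalization, median centring, a filter on the dimmest 25% of probe sets, each array left out, the replicate number as a block, other moderation, array weights, an adjusted p under 0.01, and windows of 100 and 2000 probe sets. Figures used matplotlib 3.10.9 in Python 3.11.15.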

Additional observations from a re-analysis of the deposited data

How the results depend on the processing

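The THIC difference stayed between 1.22 and 1.40 log2 units with 1 array left out and was 1.31 under both rescalings, the filter on dim probe sets and the replicate block. Its rank by rise ran from 1 to 3 of 500 with 1 array left out, and was 1 of 100 and 5 of 2000 in the other windows. The count of changed probe sets, 540 in the main setting, was 123 to 303 with 1 array left out, where fewer arrays lower the power, and 111 at an adjusted p under 0.01, which is stricter by construction. It was 1518 with the replicate number as a block; the cause was not tested. Arrays of equal number deviated from their genotype mean with correlations of 0.49, -0.02 and 0.58 for numbers 1, 2 and 3. Numbers 1 and 3 thus shared part of their deviation and number 2 did not, and whether the numbers pair the arrays was not settled. The labels state no pairing, so the main fit had no block. The block left the same 3 listed genes changed. Changed listed genes, 3 in the main setting, numbered 1 to 3 with 1 array left out and 1 at an adjusted p under 0.01. COR27, whose change was known when its list was made, passed in all 14 alternatives (limma adjusted p = 0.00125 to 0.0442). PDC2 and LHCB4.2 lost their calls in 9 other fits in all, including LHCB4.2 without a trend (0.111), and neither reached the threshold of 0.01 in the main setting. With the replicate number as a block both were below 0.01 (limma adjusted p = 0.00147 for PDC2 and 0.00892 for LHCB4.2). With 1 array left out the sign turned in 3 genes that did not pass: AT1G31220 (-0.13 to 0.059), PYK10 (-0.071 to 0.068) and OLEO3 (-0.016 to 0.36 log2 units). Leaving out replicate 3 of pkl-1 or replicate 2 of wild type, rises outnumbered falls (53.7% and 51.5% higher, against 44.8%).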
